A study of Mus musculus with 12 samples.

Results

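The genes of the cartilage-type collagens were examined in pancreatic stellate cells (PSCs), the resident fibroblasts of the pancreas that turn into matrix-producing myofibroblasts. The set consisted of Col2a1, Col9a3, Col11a1 and Col27a1, 4 of the 420 genes listed for a targeted RNA panel of extracellular matrix and adhesion genes. The members were taken by name, after their levels in these same libraries had been seen, and all 4 passed the filter on low values that left 238 genes to be tested. Their levels and differences are therefore given as a description, with standard errors and without p-values. The question put to the series was how loss of the kinase PKN2 alters matrix gene expression with and without TGF-β1, the cytokine that drives myofibroblast differentiation.

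All 12 libraries came from PSCs of C57BL/6 background that, by the study's methods, carried Rosa26CreERT2 and PKN2 fl/fl alleles, had been isolated from the pancreas of 1 mouse and were immortalized with SV40 large T antigen. PKN2 KO PSCs were those in which a short exposure to 4-hydroxytamoxifen had activated Cre, and WT PSCs had not been recombined. Each genotype was kept for 72 h with vehicle or with TGF-β1 at 5 ng/ml, which made 4 groups of 3 libraries, labelled A, B and C. The labels speak of separate cell lines and the methods of dishes, so the spread between libraries may be technical. Rosa26 drives Cre in every cell type, and since Pkn2 is not on the panel, its loss was not checked here.

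Collagens II, XI and XXVII are fibril-forming collagens and collagen IX is a fibril-associated collagen with interrupted triple helices. In hyaline cartilage, collagen II makes up the bulk of the fibril, collagen XI nucleates it and limits its diameter, and collagen IX is crosslinked to its surface. Collagen XXVII forms thin fibrils and is known from the growth plate, where cartilage is turned into bone. Chondrocytes make these collagens under SOX9, whereas fibroblasts of soft tissue build their fibrils from collagens I, III and V. The α1 chain of collagen XI can also assemble with chains of collagen V, and its gene is expressed by activated fibroblasts in tumours.

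Each library held between 1074095 and 1473153 counts on the panel, and 77 of the 420 genes had no count in any library. Of 11 fibroblast and stellate cell markers 10 passed the filter, and the 11 summed to normalized counts of 256662 to 571390, mostly Col1a1 and Sparc. Lum did not pass, with at most 5 counts in a library. Dcn passed but held 1 count in each WT TGF-β1 library and 2 to 4 in each PKN2 KO TGF-β1 library. Desmin, GFAP, vimentin and smooth muscle actin, by which PSCs are usually defined, are not among the genes listed. Of 10 chondrocyte markers, 3 of which are described here, 5 passed the filter, and Col9a1, Col9a2, Hapln1 and Crtac1 had no count in any library. In vehicle the summed level of these 10 markers ranged from 2026 to 2342 in WT and from 808 to 958 in PKN2 KO PSCs, while with TGF-β1 from 1273 to 1570 and from 506 to 526, most of it Col2a1 and Col11a1. The 3 markers of hypertrophic chondrocytes, mostly Spp1, summed to 6495 to 9264 in WT and 7842 to 11410 in PKN2 KO PSCs with vehicle, and to between 2850.0 and 4190.5 and between 3470.1 and 6701 with TGF-β1, so the genotypes overlapped in both conditions. None of 5 epithelial markers passed the filter, and no marker of the epithelial, endothelial or leukocyte lists had more than 34 counts in a library. Of the 5 Schwann and neural markers L1cam alone was counted, at 709 to 1005 in WT and 1176 to 1764 in PKN2 KO PSCs with vehicle, and at 1166 to 1501 and 1526 to 1997 with TGF-β1. The part of these markers in the results was not tested. RNA was taken from whole dishes, so fewer cells that make a transcript and less of it per cell cannot be told apart.

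Promoter sequences are shown for Col11a1 and Col27a1, the 2 of the 4 members that were matched in RefSeq on GRCm38.p6. Both were higher with TGF-β1 than with vehicle in both genotypes, but they were not picked for it. Each run is the 250 bases before the RefSeq start, 5′ to 3′ on the plus strand. A link of the marked sites to these levels was not tested. The RefSeq start of Col27a1 lies downstream of the first base of the gene in the Ensembl annotation. Capitals mark matches, on either strand, to the SMAD box CAGAC or the GC box GGGCGG, and no match overlapped another.
Col11a1, chr3:114030290-114030539: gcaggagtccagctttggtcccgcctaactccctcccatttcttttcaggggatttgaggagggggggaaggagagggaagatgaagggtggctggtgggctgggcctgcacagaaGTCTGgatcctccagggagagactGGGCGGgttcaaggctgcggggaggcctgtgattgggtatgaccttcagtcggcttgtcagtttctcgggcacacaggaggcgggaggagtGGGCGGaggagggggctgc
Col27a1, chr4:63215162-63215411: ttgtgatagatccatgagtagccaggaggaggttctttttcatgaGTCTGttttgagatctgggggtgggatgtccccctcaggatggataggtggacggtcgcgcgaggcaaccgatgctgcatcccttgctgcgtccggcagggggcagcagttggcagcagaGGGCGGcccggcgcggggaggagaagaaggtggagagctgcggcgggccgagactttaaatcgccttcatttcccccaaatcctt
The Col11a1 window had 1 SMAD box, which begins 134 bases before the start, and 2 GC boxes, at 110 and 19 bases. The Col27a1 window had 1 SMAD box at 205 bases and 1 GC box at 85 bases. Neither window held the TEAD site GGAATG, the SOX core ACAATG or the TATA box TATAAA. Of 32851 promoter windows of the same length, 42.2% held the SMAD box, 32.7% the GC box, 12.6% the TEAD site, 10.7% the SOX core and 12.4% the TATA box. The GC content was 62.4% for Col11a1 and 59.6% for Col27a1, against a median of 52.4% over all windows.

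Col2a1 encodes the single chain type of collagen II. The gene (ENSMUSG00000022483) lies on the minus strand of GRCm38 chromosome 15, from 97975602 to 98004695, and its longest coding transcript has 54 exons and 4461 coding bases. In WT vehicle PSCs its normalized count was 1843.3 in library A, 1902.0 in B and 1602.2 in C. In PKN2 KO vehicle PSCs it was 713.8, 516.5 and 613.6. After TGF-β1 it was 306.8, 233.2 and 243.1 in WT and 65.7, 61.9 and 65.9 in PKN2 KO PSCs. The 4 groups formed a staircase without overlap, with both the deletion and TGF-β1 on the lower side. The mean level in vehicle was 1783 ± 159 (SD, n = 3) in WT and 615 ± 98.6 in PKN2 KO PSCs, while with TGF-β1 it was 261 ± 40.0 and 64.5 ± 2.24. The mean of PKN2 KO was 2.90-fold lower than that of WT in vehicle and 4.05-fold lower after TGF-β1. TGF-β1 was accompanied by a 6.83-fold lower mean in WT and a 9.53-fold lower mean in PKN2 KO PSCs. Even the lowest level rested on 48 to 72 counts per library.

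Col11a1 encodes the α1 chain of collagen XI. The gene (ENSMUSG00000027966) lies on the plus strand of chromosome 3, from 114030540 to 114220718, with 67 exons and 5412 coding bases in its longest coding transcript. Its normalized count in libraries A, B and C was 397.7, 325.7 and 359.9 in WT vehicle and 173.5, 207.0 and 255.4 in PKN2 KO vehicle. After TGF-β1 it was 1224.9, 964.2 and 1200.1 in WT and 387.1, 372.3 and 408.9 in PKN2 KO PSCs. WT TGF-β1 stood above all other groups, PKN2 KO vehicle stood below them, and PKN2 KO TGF-β1 overlapped with WT vehicle. The mean level in vehicle was 361 ± 36.0 (SD, n = 3) in WT and 212 ± 41.2 in PKN2 KO PSCs, while with TGF-β1 it was 1129.7 ± 144 and 389 ± 18.4. Thus the mean in PKN2 KO was 1.70-fold lower than in WT in vehicle and 2.90-fold lower after TGF-β1. The mean with TGF-β1 was 3.13-fold that with vehicle in WT and 1.84-fold in PKN2 KO PSCs.

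Col27a1 encodes the chain of collagen XXVII. The gene (ENSMUSG00000045672) lies on the plus strand of chromosome 4, from 63214004 to 63334991, with 61 exons and 5535 coding bases in its longest coding transcript. In vehicle its normalized count was low in both genotypes, at 27.1, 33.1 and 20.7 in WT and 25.8, 30.4 and 17 in PKN2 KO libraries A, B and C. After TGF-β1 it was 175.8, 324.8 and 346.9 in WT and 110.8, 164.2 and 148.9 in PKN2 KO PSCs. The vehicle groups overlapped, both TGF-β1 groups stood above them, and PKN2 KO TGF-β1 stood below WT TGF-β1 without overlap, with WT library A the lowest of its group. The mean level in vehicle was 27.0 ± 6.20 (SD, n = 3) in WT and 24.4 ± 6.82 in PKN2 KO PSCs, while with TGF-β1 it was 283 ± 93 and 141 ± 27.5. The mean with TGF-β1 was 10.5-fold that with vehicle in WT and 5.80-fold in PKN2 KO PSCs. After TGF-β1 the mean in PKN2 KO was 2.0-fold lower than in WT PSCs. The vehicle levels rested on 16 to 49 counts per library.

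Col9a3 encodes the α3 chain of collagen IX, which needs the α1 and α2 chains to form its trimer. The gene (ENSMUSG00000027570) lies on the plus strand of chromosome 2, from 180597790 to 180622189, with 32 exons and 2040 coding bases in its longest coding transcript. Its normalized count in libraries A, B and C was 5.90, 39.2 and 23.7 in WT vehicle and 39.8, 37.4 and 36.0 in PKN2 KO vehicle. After TGF-β1 it was 11.8, 26.1 and 28.8 in WT and 21.9, 41.3 and 30.5 in PKN2 KO PSCs. In order of their means the groups were PKN2 KO vehicle, PKN2 KO TGF-β1, WT vehicle and WT TGF-β1, and each overlapped with the next. The means were 37.8 ± 1.93 (SD, n = 3), 31.2 ± 9.71, 22.9 ± 16.7 and 22.2 ± 9.14. Library A was the lowest in 3 of the 4 groups, and in WT vehicle it held 5 counts of the gene, and in each comparison the difference of the means was smaller than the SD of the WT or the TGF-β1 libraries.

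**Figure D1:**
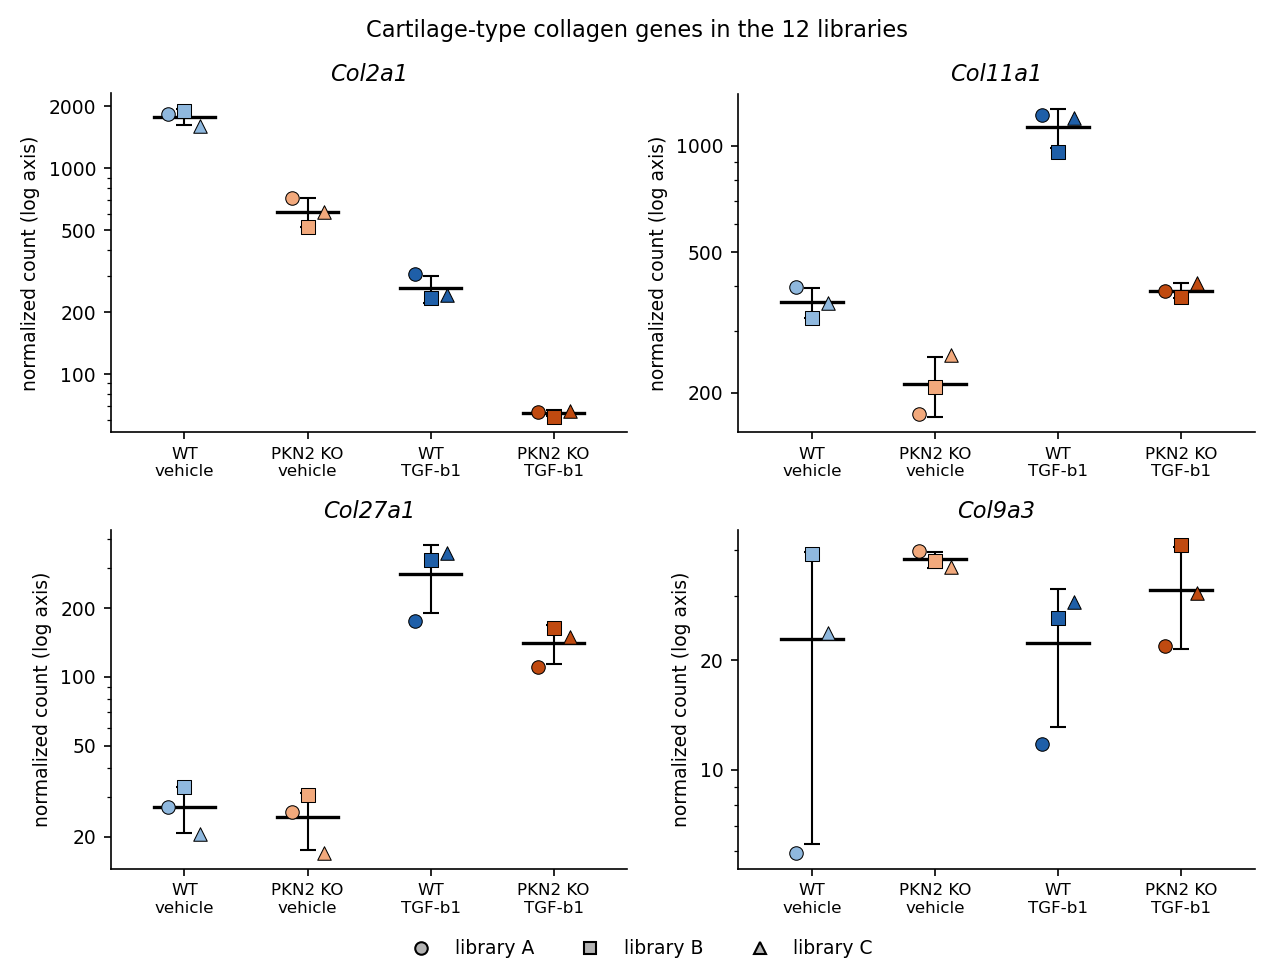
Normalized count (log axis) of Col2a1, Col11a1, Col27a1 and Col9a3 in libraries A (circle), B (square) and C (triangle) of the 4 groups, with the group mean (bar) and SD (whiskers, n = 3). Col2a1 steps down from 1783 in WT vehicle to 64.5 in PKN2 KO TGF-β1, and Col11a1 and Col27a1 peak in WT TGF-β1 at 1129.7 and 283. The groups of Col9a3, taken in order of their means, each overlap with the next.

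The same data were put on a log2 scale, as log2(normalized count + 1), and fitted with limma over all 238 genes with 1 mean per group. In vehicle the log2 difference of PKN2 KO from WT was -1.54 (standard error 0.17) for Col2a1, -0.78 (0.17) for Col11a1, -0.15 (0.33) for Col27a1 and 1.03 (0.55) for Col9a3. Col2a1 and Col11a1 were among the genes called lower at an adjusted p under 0.05, a call made for 2.94% of the genes tested (13.9% in either direction). Col2a1 had the lowest log2 difference but 1 and Col11a1 ranked 10th from the lowest of the 238 genes. In the same 2 genes the libraries of the groups did not overlap, as was the case in the lower direction for 8.4% of genes. As the members were chosen on these levels, nothing is read from these calls.

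After TGF-β1 the log2 difference of PKN2 KO from WT was -1.99 (standard error 0.17) for Col2a1, -1.53 (0.17) for Col11a1, -0.95 (0.33) for Col27a1 and 0.52 (0.55) for Col9a3. Col2a1 and Col11a1 were again called, where 6.3% of genes were called lower and 15.1% in either direction, and they ranked 4th and 7th from the lowest. Col27a1 was not called by limma and was called by edgeR's quasi-likelihood test and by the DESeq2 Wald test. Its libraries did not overlap between genotypes, nor did those of Col2a1 and Col11a1, in the direction that 10.5% of genes showed. The genes were chosen on these levels, and nothing is read from their share against these backgrounds.

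With TGF-β1 the fibril-forming members parted. The log2 difference of TGF-β1 from vehicle in WT was -2.77 (standard error 0.17) for Col2a1, 1.64 (0.17) for Col11a1, 3.30 (0.33) for Col27a1 and 0.20 (0.55) for Col9a3. The Col9a3 value had no firm sign, since it was -0.08 with edgeR, -0.04 with total counts and -0.53 without WT vehicle library A. In PKN2 KO PSCs, which have their own vehicle controls, the values were -3.22 (0.17), 0.89 (0.17), 2.51 (0.33) and -0.31 (0.55). Col11a1 and Col27a1 were called higher and Col2a1 lower in both genotypes, but the members were chosen on these levels and nothing is read from these calls. TGF-β1 moved much of the panel, with 50.8% of genes called in WT (23.9% higher, 26.9% lower) and 48.7% in PKN2 KO (19.7% higher, 29% lower). The libraries with TGF-β1 and with vehicle did not overlap for these 3 members, as was so for 25.6% of genes on the higher and 30.3% on the lower side in WT, and for 21.4% and 31.5% in PKN2 KO PSCs. Col27a1 ranked 9th from the highest of the 238 genes in WT and 13th in PKN2 KO PSCs.

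The interaction of genotype and TGF-β1, the log2 response to TGF-β1 in PKN2 KO minus that in WT PSCs, was -0.45 (standard error 0.24) for Col2a1, -0.75 (0.24) for Col11a1, -0.80 (0.47) for Col27a1 and -0.51 (0.78) for Col9a3. The sign for Col9a3 rested on WT vehicle library A, with its 5 counts, and without that library the value was 0.22. None was among the 8 genes, 3.36% of those tested, that limma called for the interaction, and edgeR and DESeq2 called none of the 4. Of the 4, Col11a1 alone lay below an unadjusted p of 0.05 by limma. The members were chosen on these levels, and nothing is read from that.

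**Figure D2:**
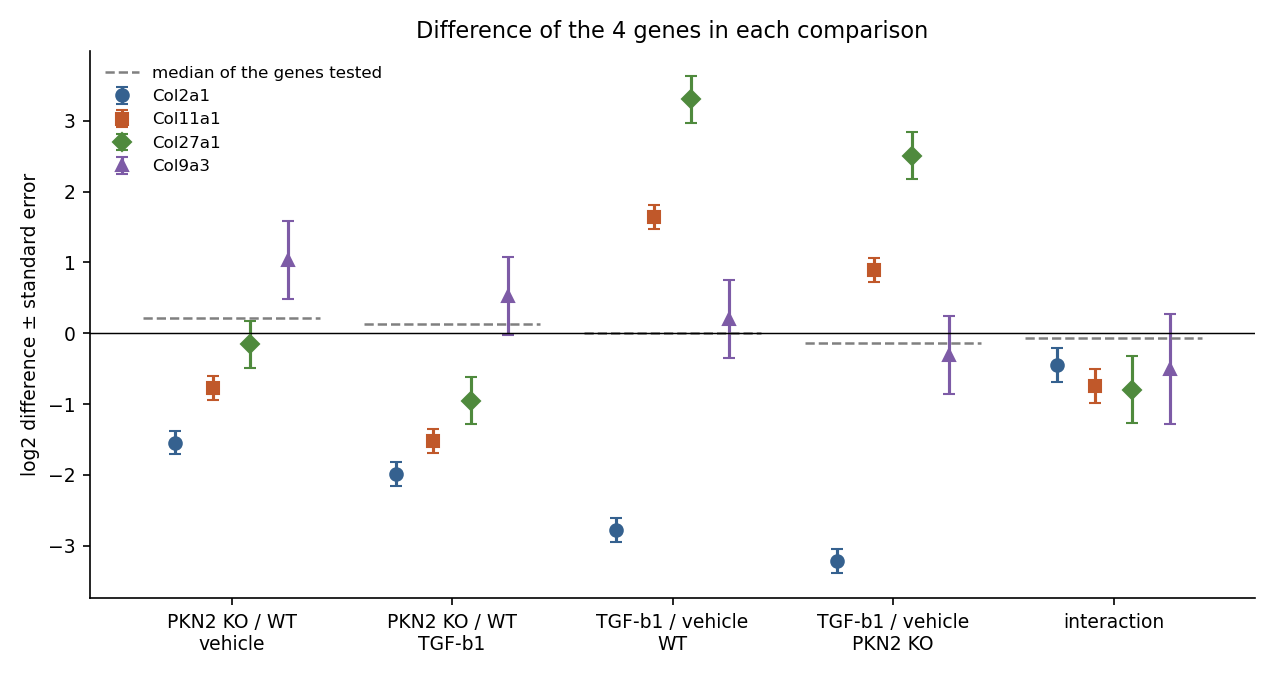
Log2 difference ± standard error of each member in the 4 comparisons between groups and in the interaction, with the median over the 238 genes tested as a dashed line. Col2a1 lies below the median throughout, Col11a1 and Col27a1 lie below it between genotypes and above it with TGF-β1, and Col9a3 has the widest error.

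Part of each difference depends on how the libraries are scaled. With the authors' reference gene factors the median log2 difference of PKN2 KO from WT in vehicle was 0.21 over all genes tested, and it was 0.02 with TMM, -0.02 with the median of ratios and 0.15 with total counts. Relative to this median, Col2a1 was at -1.75 and Col11a1 at -0.99 under each of the 4 scalings. A scaling shifts all genes of a library alike, so apart from the pseudocount this agreement follows from the calculation and is no test. Scaling to total counts moved the median with TGF-β1 to -0.25 in WT and -0.34 in PKN2 KO PSCs. Relative to the median in WT Col2a1 was at -2.77 and Col11a1 at 1.64, which again follows from the calculation.

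The ratio of 2 genes within a library does not depend on the scaling. Counts of an amplicon panel depend on the primers, so the size of such a ratio does not compare the levels of 2 transcripts, and its change between groups is what can be read. The ratio of Col2a1 to Col11a1 was 4.64, 5.84 and 4.45 in WT vehicle libraries A, B and C and 4.11, 2.49 and 2.40 in PKN2 KO vehicle. After TGF-β1 it was 0.250, 0.242 and 0.203 in WT and 0.170, 0.166 and 0.161 in PKN2 KO PSCs. None of the 4 groups overlapped, and the mean went from 4.98 ± 0.754 (SD, n = 3) in WT vehicle to 0.232 ± 0.0255 in WT TGF-β1. The ratio was lower with TGF-β1 in both genotypes, and in each condition it was lower in PKN2 KO PSCs.

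The ratio of Col2a1 to Col27a1 spanned a wider range. Its mean in vehicle was 67.6 ± 9.97 (SD, n = 3) in WT and 27.0 ± 9.61 in PKN2 KO PSCs, while with TGF-β1 it was 1.05 ± 0.598 and 0.471 ± 0.111, again with no overlap between groups. The ratio of Col27a1 to Col11a1 was 0.0758 ± 0.0230, 0.121 ± 0.0470, 0.256 ± 0.101 and 0.364 ± 0.0774 in the same order. It was higher with TGF-β1 than with vehicle in each genotype without overlap, and the genotypes overlapped in each condition.

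**Figure D3:**
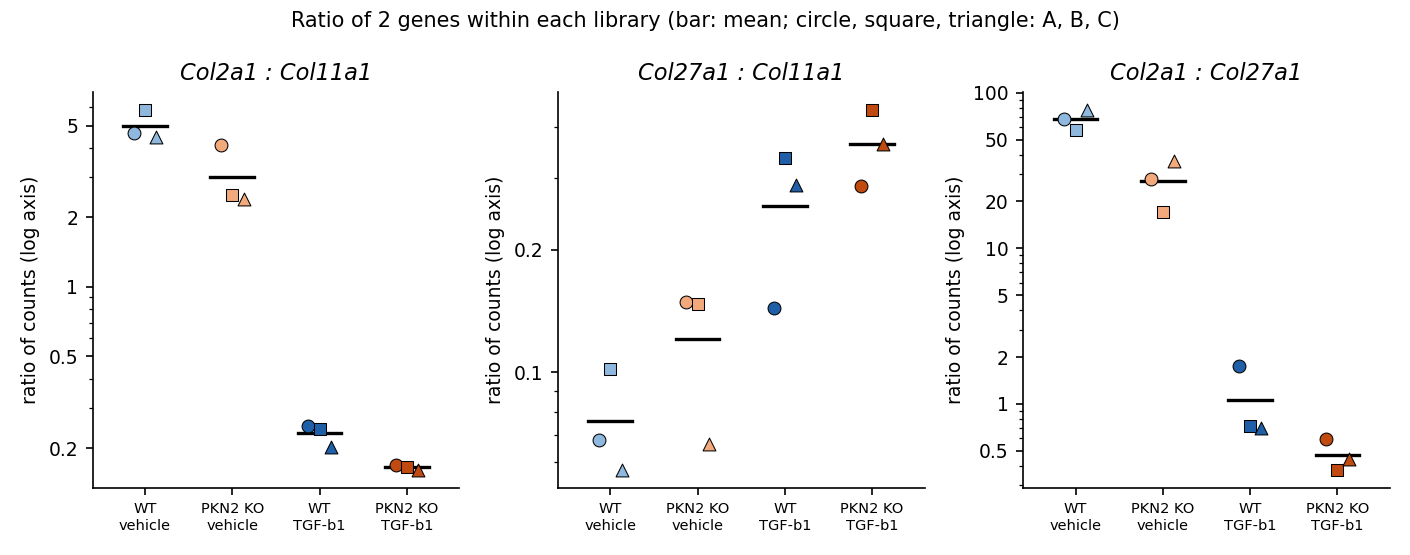
Ratio of the counts of 2 genes within each library (log axis) for Col2a1 to Col11a1, Col27a1 to Col11a1 and Col2a1 to Col27a1 in the 4 groups, with bars at the group mean (n = 3) and symbols for libraries A, B and C. The mean of Col2a1 to Col11a1 steps down from 4.98 in WT vehicle to 0.166 in PKN2 KO TGF-β1.

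Of the other chains of cartilage-type collagens, Col9a1 and Col9a2, which encode the partners of the collagen IX α3 chain, had no count in any of the 12 libraries, which allows up to 3 counts per library. Col24a1, for the fibrillar collagen XXIV, had at most 9 counts in a library and was not tested. Col11a2, for the α2 chain of collagen XI, had 3 to 23 counts per library, with mean levels in vehicle of 10.6 ± 6.29 (SD, n = 3) in WT and 6.82 ± 3.56 in PKN2 KO PSCs, while with TGF-β1 of 14.3 ± 6.48 and 10.2 ± 1.46. Col10a1, for the collagen X of hypertrophic cartilage, was at 14.6 ± 7.98 and 16.5 ± 1.44 in vehicle and at 5.96 ± 5.79 and 9.84 ± 1.45 with TGF-β1. Neither was called by limma, edgeR or DESeq2 in any of the 5 comparisons. By limma 1 unadjusted p was under 0.05, that of Col10a1 for TGF-β1 in WT, at a log2 difference of -1.34 (standard error 0.54, adjusted p = 0.051).

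The fibrillar chains of soft tissue and the partners of collagen XI were all well covered, and all 6 passed the filter. Between genotypes limma, fitted without a term for the library letter, called none of them in either condition, at an unadjusted p under 0.05 there was none, and edgeR and DESeq2 called none. Their median log2 difference of PKN2 KO from WT was 0.09 in vehicle and -0.01 after TGF-β1, beside 0.21 and 0.13 over all genes tested. With TGF-β1, 3 of the 6 rose in WT and 2 in PKN2 KO PSCs, where 23.9% and 19.7% of all genes tested were called higher. Col5a3, for the rare α3 chain of collagen V, rose from 265 ± 24.0 (SD, n = 3) to 1499 ± 128 in WT (log2 difference 2.50, standard error 0.18, adjusted p = 3.8e-08) and from 295 ± 50.3 to 1369.7 ± 301 in PKN2 KO PSCs (2.20, adjusted p = 1.5e-07). Col5a2 rose in WT (0.92, adjusted p = 0.0046) and PKN2 KO PSCs (0.99, adjusted p = 0.0031), and Col5a1, whose product can assemble with collagen XI chains, in WT (0.65, adjusted p = 0.0083). Col1a1, Col1a2 and Col3a1 were not called in any comparison of this fit. With a term for the letter, limma called Col3a1 (adjusted p = 6.4e-05) and Col5a1 (0.0045) between genotypes after TGF-β1. It then also called Col1a1 and Col3a1 with TGF-β1 in WT.

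Of 10 proteins that bind cartilage fibrils or mark cartilage, 6 passed the filter. Prelp, for a leucine-rich repeat protein that anchors collagen to basement membranes, rose in PKN2 KO from 947 ± 345 (SD, n = 3) to 2969 ± 565 in vehicle (log2 difference 1.70, standard error 0.35, adjusted p = 0.0047) and from 14.9 ± 5.52 to 411 ± 213 after TGF-β1 (4.63, adjusted p = 4.5e-07). It fell with TGF-β1 in WT (-5.88, adjusted p = 6.8e-09) and PKN2 KO PSCs (-2.95, adjusted p = 6.8e-06), and its interaction was 2.93 (adjusted p = 0.011), a call lost without PKN2 KO vehicle library B (adjusted p = 0.054) or WT TGF-β1 library C (0.053). Fmod, for fibromodulin, which binds collagen fibrils and limits their growth, rose in PKN2 KO in vehicle (1.90, adjusted p = 0.015) and after TGF-β1 (2.92, adjusted p = 5.9e-04), and with TGF-β1 in PKN2 KO PSCs (2.19, adjusted p = 0.0014). In vehicle the call of Fmod was lost without WT library C (adjusted p = 0.065), PKN2 KO library A (0.080) or PKN2 KO library C (0.064). Dcn, for decorin, fell with TGF-β1 by limma in WT (-3.24, adjusted p = 2.9e-04) and PKN2 KO PSCs (-2.81, adjusted p = 0.0012). Its counts summed over the 3 libraries went from 64 to 3 in WT (20.1-fold lower, exact 95% binomial interval 6.59 to 100.2). In PKN2 KO they went from 104 to 10 (8.79-fold lower, 4.59 to 18.9), and the intervals cover counting error only. Postn, for periostin, rose with TGF-β1 in WT (0.96, adjusted p = 0.0089). The medians of the 6 genes were 0.56 in vehicle and 0.79 after TGF-β1 between genotypes, against 0.21 and 0.13 over all genes tested.

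Of 13 genes for collagen processing 11 passed the filter. Between genotypes 2 of the 11 fell in PKN2 KO after TGF-β1, beside 6.3% of all genes tested. In vehicle limma, fitted without a term for the library letter, called none, with none at an unadjusted p under 0.05 and none by edgeR or DESeq2. With that term, limma called Lox in vehicle (log2 difference 0.37, adjusted p = 0.0088). Adamts14, for a procollagen N-proteinase, fell from 151 ± 18.7 (SD, n = 3) in WT to 47.4 ± 3.86 in PKN2 KO TGF-β1 (log2 difference -1.64, standard error 0.21, adjusted p = 8.5e-05). It also fell with TGF-β1 in PKN2 KO PSCs (-1.64, adjusted p = 1.3e-05), and its interaction was -1.33 (adjusted p = 0.026). The interaction was called in 4 of 12 fits that leave out a library, and lost, at adjusted p of 0.051 to 0.088, without any 1 of the 3 PKN2 KO vehicle libraries, WT vehicle library C, WT TGF-β1 library A or C, or PKN2 KO TGF-β1 library B or C. Loxl2, for a lysyl oxidase that crosslinks collagen, fell in PKN2 KO after TGF-β1 (-1.34, standard error 0.35, adjusted p = 0.018), a call lost without WT library A (adjusted p = 0.068), WT library C (0.056) or PKN2 KO library B (0.063) of the TGF-β1 groups. With TGF-β1, Plod2, for the lysyl hydroxylase of collagen telopeptides, rose in WT (1.68, adjusted p = 1.1e-05) and PKN2 KO PSCs (1.83, adjusted p = 5.4e-06). P3h1, a prolyl 3-hydroxylase, rose in WT (0.72, adjusted p = 0.0081).

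Lox, for lysyl oxidase, rose with TGF-β1 in WT (0.88, adjusted p = 0.012), a call lost without WT vehicle library B (adjusted p = 0.056) or WT TGF-β1 library A (0.060). Pcolce, for an enhancer of procollagen C-proteinases, fell with TGF-β1 in WT (-0.94, adjusted p = 0.0074) and PKN2 KO PSCs (-1.07, adjusted p = 0.0034), and Adamts2, for another N-proteinase, fell in WT (-0.83, adjusted p = 0.0012) and PKN2 KO PSCs (-0.75, adjusted p = 0.0028). Loxl1 fell with TGF-β1 in PKN2 KO PSCs (-0.48, adjusted p = 0.012), a call lost without PKN2 KO TGF-β1 library C (adjusted p = 0.073). In all, 3 of the 11 rose and 2 fell in WT, and 1 rose and 4 fell in PKN2 KO PSCs. In this fit, without a term for the library letter, calls in either direction were thus made for 5 of 11 in each genotype. That share was near the 50.8% and 48.7% over all genes tested. With a term for the letter, 7 of 11 were called in WT and 10 of 11 in PKN2 KO PSCs, with or without the trend of limma. Over all genes tested it was 66.8% and 64.3%, and 62.6% and 58% without the trend.

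Among 7 proteases that cleave collagen or aggrecan, 5 passed the filter. With TGF-β1, 3 rose and 1 fell in each genotype, beside 23.9% higher and 26.9% lower of all genes tested in WT, and 19.7% and 29% in PKN2 KO PSCs. Adamts5, for an aggrecanase, fell from 2711 ± 396 (SD, n = 3) to 111 ± 26.3 in WT (log2 difference -4.61, standard error 0.26, adjusted p = 6.6e-09) and from 1231 ± 279 to 69.4 ± 24.8 in PKN2 KO PSCs (-4.17, adjusted p = 1.1e-08). Like Col2a1 it was also lower in PKN2 KO in vehicle (-1.15, adjusted p = 0.0086), a call lost without WT vehicle library C (adjusted p = 0.057). Adamts4, for the other main aggrecanase, rose in WT (1.91, adjusted p = 2.5e-07) and PKN2 KO PSCs (2.06, adjusted p = 1.4e-07). Mmp13, for the collagenase that cleaves collagen II, was scarce, and by limma it rose in WT (2.63, adjusted p = 0.0039) and PKN2 KO PSCs (2.61, adjusted p = 0.0045). Its counts summed over the 3 libraries went from 2 to 32 in WT (17-fold, exact 95% binomial interval 4.33 to 146). In PKN2 KO they went from 6 to 39 (7.69-fold, 3.23 to 22.2), and the intervals cover counting error only. Mmp14, for a membrane-bound collagenase, rose in WT (1.03, adjusted p = 0.011), a call lost without WT vehicle library B (adjusted p = 0.050) or WT TGF-β1 library A (0.054). In PKN2 KO PSCs it was called at 0.80 (adjusted p = 0.044) although the groups overlapped, and the call was kept in 5 of 12 fits that leave out a library, and the adjusted p was highest, at 0.19, without PKN2 KO TGF-β1 library A. After TGF-β1 limma, fitted without a term for the library letter, called none of the 5 between genotypes. At an unadjusted p under 0.05 there was 1, and edgeR and DESeq2 called none. With a term for the letter, limma called Mmp2 (adjusted p = 5.8e-04) and Adamts5 (2.7e-06) in that comparison.

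All 5 chains of the collagen-binding integrins passed the filter. Between genotypes in vehicle limma, fitted without a term for the library letter, called none, with none at an unadjusted p under 0.05 and none by edgeR or DESeq2. Itga11, for the α11 chain that binds fibrillar collagen on fibroblasts, fell with TGF-β1 from 105 ± 26.5 (SD, n = 3) to 7.87 ± 2.07 in WT (log2 difference -3.57, standard error 0.44, adjusted p = 6.3e-06). In PKN2 KO PSCs it fell from 492 to 4 counts over the 3 libraries (103.9-fold lower, exact 95% binomial interval 40.3 to 383), and limma gave an adjusted p of 2.6e-08. After TGF-β1 it was lower in PKN2 KO than in WT, at 4 against 24 counts (5.16-fold, 1.77 to 20.5), where the adjusted p of limma was 0.0028. Itga2, for the α2 chain of a collagen receptor, rose with TGF-β1 in WT (3.34, adjusted p = 3.4e-05) and PKN2 KO PSCs (3.14, adjusted p = 6.9e-05). Itgb1, for the β1 chain that they share, rose in WT (1.19, adjusted p = 0.0040) and PKN2 KO PSCs (1.08, adjusted p = 0.0085). Itga10, for the α10 chain known from chondrocytes, was not called in any comparison, with mean levels of 20.9 to 29.5. The intervals on summed counts cover counting error only.

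**Figure D4:**
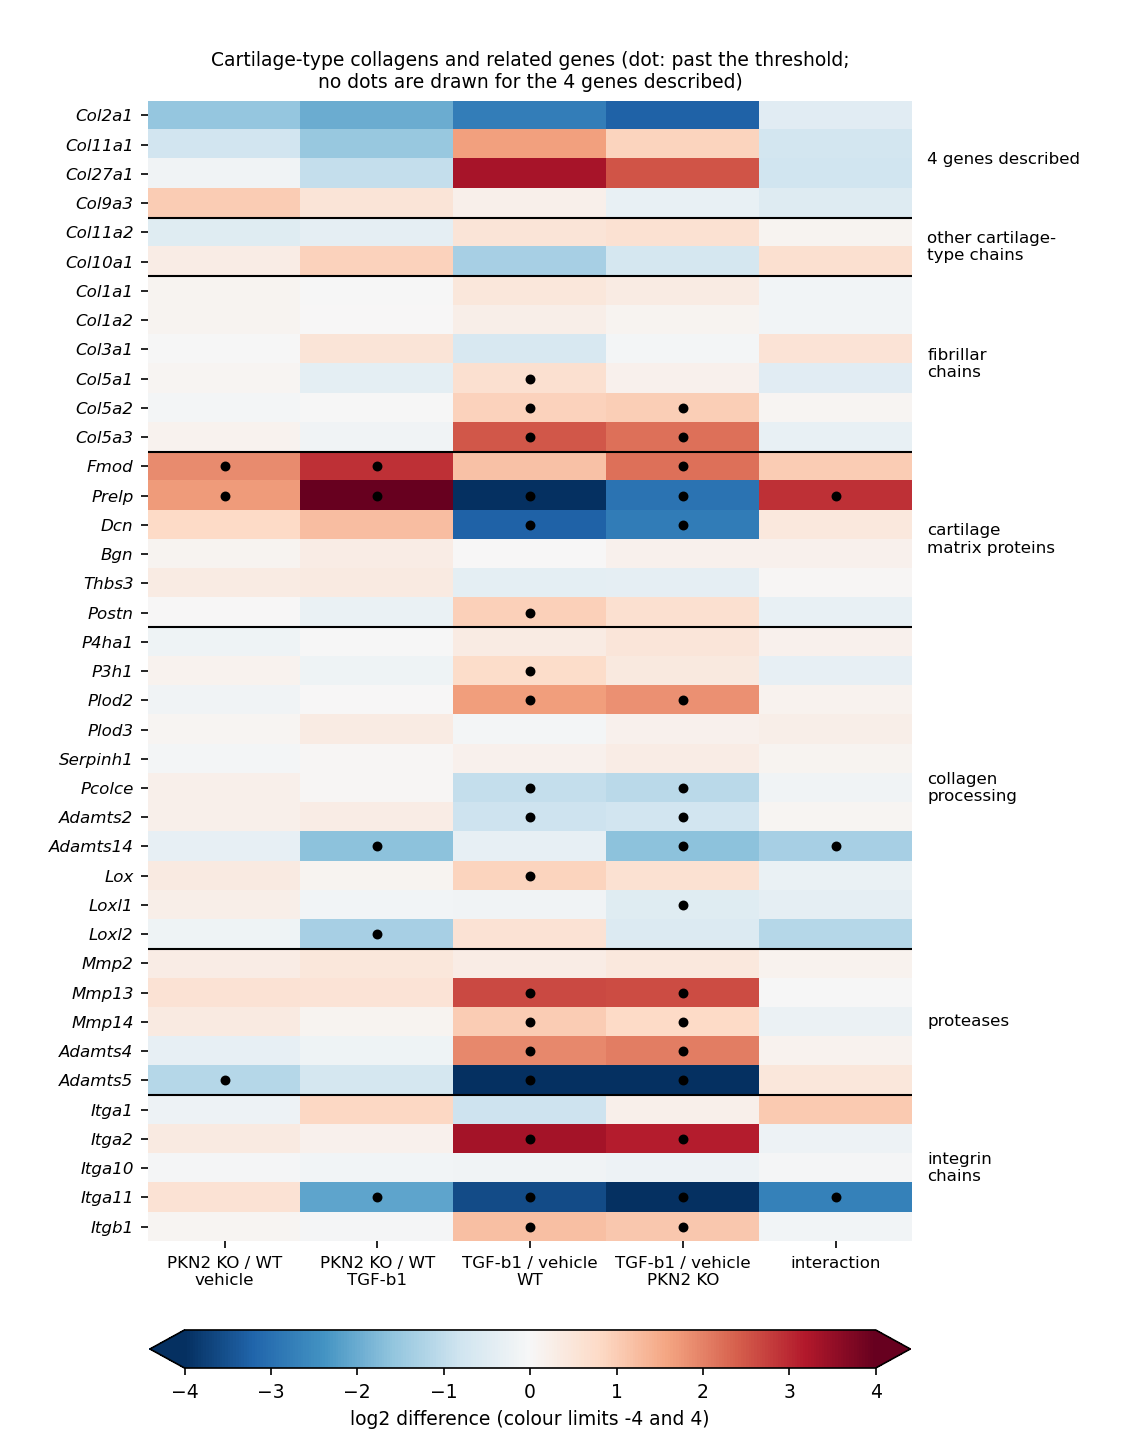
Log2 difference (colour, limits -4 and 4) of the members and of the tested genes of the 6 related lists, in rows, over the 4 comparisons between groups and the interaction, in columns. Dots mark differences past the threshold for genes other than the 4 described. Between genotypes Col2a1 and Col11a1 are blue, Col27a1 is at -0.15 in vehicle and -0.95 after TGF-β1, and Col9a3 is at 1.03 and 0.52. The collagen I, III and V chains are pale, with Col3a1 at 0.53 and Col5a1 at -0.39 after TGF-β1.

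The genes whose profiles were most like those of the members were found by the root mean square difference of log2 values over the 12 libraries, each gene being set relative to its mean in WT vehicle. For Col2a1 they were Entpd1 (0.83), Cdh18 (0.95) and Vcam1 (0.96), against a median of 2.99 over 234 other genes. Vcam1, for a leukocyte adhesion molecule, was at 940.3 ± 143 (SD, n = 3) in WT and 660.4 ± 37.1 in PKN2 KO PSCs with vehicle, and at 47.8 ± 10.9 and 31.6 ± 12.0 with TGF-β1. Entpd1, for the ectonucleotidase CD39, was at 57.2 ± 8.52 and 40.0 ± 4.89 with vehicle and at 5.44 ± 3.62 and 0.456 ± 0.790 with TGF-β1. Cdh18 was at 0.743 ± 0.691 in PKN2 KO TGF-β1. The log2 values of Entpd1 and Cdh18 in that group are thus set largely by the pseudocount of 1.

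For Col11a1 the 2 most alike genes were Ccn2 (0.54) and Thbs1 (0.57), against a median of 1.27. Ccn2, for connective tissue growth factor, was at 22479 ± 4945 (SD, n = 3) in WT and 23640 ± 2142 in PKN2 KO PSCs with vehicle, and at 53926 ± 5983 and 24130 ± 4136 with TGF-β1. These genes matched Col11a1 in peaking in WT TGF-β1, while in PKN2 KO vehicle Col11a1 lay below its WT level and they lay at theirs. For Col27a1 they were Col7a1 (0.43), Alcam (0.58) and Tnc (0.59), against 2.09, and Col7a1, for the collagen of anchoring fibrils, was at 7.83 ± 3.34, 9.02 ± 2.74, 108 ± 27.5 and 54.2 ± 5.57 in the same order of groups. For Col9a3 they were Pcdhgb4 (0.34), Pcdhga8 (0.38) and Pcdhga5 (0.41), against 1.11. These 3 are variable members of the protocadherin γ cluster, which share constant exons, and their counts may not be independent. Among the members themselves the closest pairs were Col9a3 and Col11a1 at 1.39, Col11a1 and Col27a1 at 1.49 and Col9a3 and Col27a1 at 1.93. The value of 1.39 lay above the medians over other genes of both partners, 1.11 and 1.27. That of 1.49 lay above the 1.27 of Col11a1 and that of 1.93 above the 1.11 of Col9a3, both below the 2.09 of Col27a1. Col2a1 was at 3.32 from Col11a1, 3.44 from Col9a3 and 4.75 from Col27a1, each above its median over other genes.

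**Figure D5:**
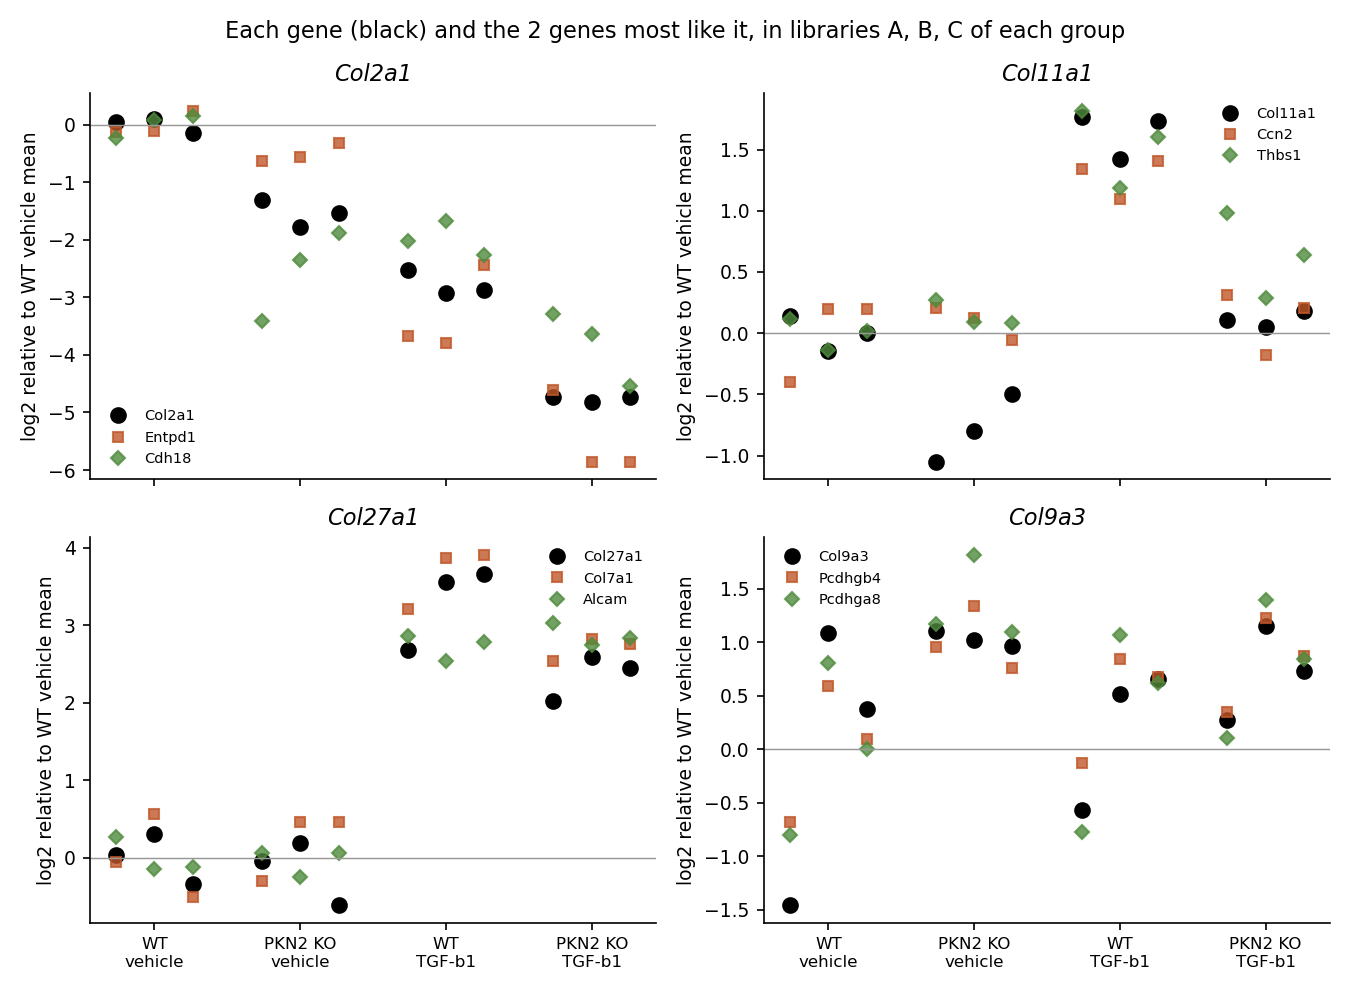
Log2 value relative to the mean of WT vehicle, in libraries A, B and C (left to right) of the 4 groups, for each member (black) and the 2 genes most like it. Ccn2 and Thbs1 peak with Col11a1 in WT TGF-β1, but Col11a1 lies below them in PKN2 KO vehicle.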

How the data were processed

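The 12 targeted RNA libraries were analysed as 4 groups of 3. The deposited files hold whole-number counts and normalized counts. The latter are a signal that the authors obtained by scaling each library with 1 factor, from reference genes that are not named in the sources used here. The submitters' processing notes name STAR, mm10 and DESeq2 1.32. Among the raw columns, 6 carry repeated names and were left out. The normalized tables hold all 12 libraries, and dividing each by its step gave back the deposited counts of all genes in the 6 other raw columns.

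The 238 genes that reached a normalized count of 10 in 3 or more libraries were tested with limma 3.58.1 in R 4.3.3 on log2(normalized count + 1), with a trend, robust estimation and 1 mean per group, and p-values were Benjamini-Hochberg adjusted over all 238 at 0.05. The pseudocount of 1 makes log2 differences of scarce genes smaller than they are. The scripts were tested on simulated data. Symbols of all 420 identifiers and gene positions come from Ensembl identifiers on GRCm38 (mm10). Alternatives were other scalings, edgeR 4.0.16 and DESeq2 1.42.0 on the recovered counts, other filters and pseudocounts, no trend, the replicate letter as a block, and each library left out in turn.

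The members and lists were chosen with earlier results of these data known. The text names all 4 members, every gene of 6 lists that passed the threshold in at least 1 comparison, all genes of the first list, and the 3 genes most like each member, of which 1 is not reported here.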

Additional observations from a re-analysis of the deposited data

Results flagged for a closer look

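By the interaction term of limma, the response to TGF-β1 was called different between genotypes for 3 genes of the related lists. No member of the set was called, and of all 238 genes tested 8 were (3.36%). The interaction of Prelp was 2.93 (standard error 0.50, adjusted p = 0.011), so its fall with TGF-β1 was smaller in PKN2 KO PSCs, and the call was lost without PKN2 KO vehicle library B (adjusted p = 0.054) or WT TGF-β1 library C (0.053). That of Adamts14 was -1.33 (standard error 0.30, adjusted p = 0.026), with a fall in PKN2 KO PSCs alone past the threshold. That of Itga11 was -2.69 (standard error 0.62, adjusted p = 0.026), a size that depends on the pseudocount because PKN2 KO TGF-β1 libraries held at most 3 counts. With 1 library left out, Adamts14 and Itga11 each kept the call in 4 of 12 fits, and the highest adjusted p was 0.088 for both. The fits of Adamts14 that kept it left out WT vehicle library A or B, WT TGF-β1 library B or PKN2 KO TGF-β1 library A, and those of Itga11 left out WT vehicle library A, WT TGF-β1 library B or PKN2 KO TGF-β1 library A or B.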

How the results depend on the processing

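Every difference called for a member kept its direction and its call under all 12 alternatives and with each of the 12 libraries left out. The members were chosen on the levels in these same libraries, so this describes the fits and is no support for the calls. The size of these differences moved by more than the residual spread in a few cases. In vehicle, Col2a1 was at -1.73 with TMM, and the median of ratios put it at -1.78 and Col11a1 at -1.01. Scaling to total counts gave -3.02 for Col2a1 and 1.39 for Col11a1 with TGF-β1 in WT, and -3.42 and 0.69 in PKN2 KO PSCs. Genes called after TGF-β1 between genotypes numbered 56 with TMM and 65 with total counts, against 36. The split of higher and lower genes was 26 and 7 in vehicle, 20 and 13 under TMM, 19 and 20 under the median of ratios and 34 and 10 with total counts, and 21 and 15 after TGF-β1, 27 and 29, 24 and 30, and 42 and 23. Without the trend 4 interactions were called, against 8. With 1 library left out, between 17 (without WT vehicle library C) and 38 genes were called in vehicle, and between 0 (without PKN2 KO vehicle library B) and 11 interactions. The deviations of same-lettered libraries from the mean of their group correlated across genes at 0.35 to 0.70 in all 12 pairs of A or of B libraries and at -0.23 to 0.14 in the 6 pairs of C libraries. A and B libraries thus shared deviations. Of the 18 pairs 5, all of C libraries, were not above 0.1, and the letter was left out of the main fit for that reason. The deviations of a gene within a group sum to 0, so where A and B deviate in opposite directions, C is left with little. Low values among C libraries therefore cannot decide whether the letters pair the samples. The main fit leaves the shared deviations in its residual spread, and a gene that it did not call is no sign of an absent difference. With the replicate block the calls were 87 in vehicle (36.6% of genes), 101 after TGF-β1 (42.4%) and 42 interactions (17.6%), and without the trend as well 71 (29.8%), 90 (37.8%) and 17 (7.14%). The block alone called Col9a3 in vehicle and the interaction of Col11a1, neither of which was called with the block and no trend, and both forms called Col27a1 between genotypes after TGF-β1. That call of Col27a1 was also made in 1 of 12 fits that leave out a library, without WT TGF-β1 library A. Among related genes not called without the block, both forms of it called, for example, Col3a1 (0.53, adjusted p = 6.4e-05 and 0.017) and Col5a1 (-0.39, 0.0045 and 0.035) between genotypes after TGF-β1, as well as Mmp2 and Adamts5, Lox between genotypes in vehicle, and Col1a1, Col3a1 and Col10a1 with TGF-β1 in WT. Few counts limit Col9a3, whose difference in vehicle ranged from 0.30 (without WT library A) to 1.57 (without WT library B).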
